A study of Mus musculus with 3 samples.

Results

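FOG2 peaks lying deep inside protein-coding genes of intermediate length, 100 kb to under 500 kb, are described here. A peak was a member when its summit, the point of strongest signal, lay on an autosome, inside a RefSeq protein-coding gene body and more than 5 kb from every protein-coding gene end, and when the longest gene body holding the summit had a length in that range. The rule used positions only, and not the strength of a peak. Of the 6166 peaks in the whole list, 1346 (21.8%) were members, and of the 2061 autosomal genes of this length with sequence that could hold a member, 797 (38.7%) did.

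The tissue was the heart ventricle of E12.5 mouse embryos (the number is days of gestation). About 20 ventricles made up a replicate, and 2 libraries of the FOG2 pulldown and 1 input library were sequenced. All 3 libraries share the genotype Fog2flbio/flbio;Rosa26BirA/BirA: a tagged FOG2 allele and, at Rosa26, BirA, the bacterial biotin ligase that biotinylates the tag, so that FOG2 and the chromatin bound to it could be recovered on streptavidin beads. The labels also give the genotype as WT, with the antibody as FOG2 for the pulldown and none for the input, which differs from their protocol. The authors pooled the replicates before calling peaks, so no value has a spread between replicates, and the input was not a pulldown from mice without the tag.

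FOG2, encoded by Zfpm2, is a zinc finger cofactor that does not act by binding DNA itself but attaches to GATA factors, above all GATA4 in the heart, and can recruit repressor complexes to their target genes. Mice without it die in mid-gestation with heart malformations and without coronary vessels. Long genes carry most of their length as introns, and the introns of developmental genes are a common place for enhancers. The host genes here include those of actin regulators, channels, receptors and transcription factors of heart muscle.

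For 12 members the peak overlapped a stretch around a transcription start that RefSeq annotates inside the host gene. These are the members of which some bases can be shown. The 4 below are the protein-coding starts with the summit inside the stretch: Sgms1 (a sphingomyelin synthase), Ablim1 (an actin-binding LIM protein), Dab2 (an endocytic adaptor) and Mllt3 (a subunit of the super elongation complex). Each stretch runs from 250 bases before the start to 50 after it, 5′ to 3′ on the gene's strand, and comes from RefSeq on GRCm38.p6 (mm10). The stretches are not the peaks, which they overlap by 300 bases at Sgms1, 225 at Ablim1, 119 at Dab2 and 276 at Mllt3. Capitals mark AGATAA or TGATAA on either strand, the letters of GATA factor motifs.

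Sgms1, minus strand, chr19:32349267-32349566: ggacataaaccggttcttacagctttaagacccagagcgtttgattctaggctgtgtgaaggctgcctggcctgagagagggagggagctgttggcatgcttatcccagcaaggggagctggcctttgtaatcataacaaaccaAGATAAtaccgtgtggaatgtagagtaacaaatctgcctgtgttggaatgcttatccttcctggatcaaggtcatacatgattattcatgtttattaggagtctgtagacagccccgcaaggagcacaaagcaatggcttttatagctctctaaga
Ablim1, minus strand, chr19:57197582-57197881: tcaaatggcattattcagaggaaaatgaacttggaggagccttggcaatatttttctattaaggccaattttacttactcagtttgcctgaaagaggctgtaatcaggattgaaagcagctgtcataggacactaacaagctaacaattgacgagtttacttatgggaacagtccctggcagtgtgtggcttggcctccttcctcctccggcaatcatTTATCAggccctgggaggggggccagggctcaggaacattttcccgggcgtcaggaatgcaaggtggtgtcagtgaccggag
Dab2, plus strand, chr15:6386498-6386797: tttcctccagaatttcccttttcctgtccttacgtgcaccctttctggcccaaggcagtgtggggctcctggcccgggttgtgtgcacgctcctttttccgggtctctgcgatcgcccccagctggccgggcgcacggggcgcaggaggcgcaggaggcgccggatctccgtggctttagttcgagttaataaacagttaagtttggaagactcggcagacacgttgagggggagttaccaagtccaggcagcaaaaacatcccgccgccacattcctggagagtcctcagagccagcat
Mllt3, minus strand, chr4:87806274-87806573: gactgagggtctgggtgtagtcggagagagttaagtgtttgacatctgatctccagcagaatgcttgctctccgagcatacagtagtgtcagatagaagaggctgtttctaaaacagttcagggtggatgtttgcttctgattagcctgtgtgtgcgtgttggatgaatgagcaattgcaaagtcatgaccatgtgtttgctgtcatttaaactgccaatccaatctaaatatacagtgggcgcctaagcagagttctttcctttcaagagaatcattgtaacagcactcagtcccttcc

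The strength of a peak is given below as the authors' fold, the pulldown signal over the control at the summit. It is followed by the number of pulldown fragments recovered at the summit, with an exact 95% Poisson interval that covers counting error only. At Sgms1 the peak was 13.4-fold with 37 fragments (26.1 to 51.0), and its summit lay 70 bases upstream of the start. The Ablim1 peak was 9.20-fold with 25 fragments (16.2 to 36.9), its summit 1 base upstream of the start. Each of these 2 stretches holds 1 GATA match. The Dab2 peak was 7.79-fold with 21 fragments (13.0 to 32.1), 35 bases downstream of the start, and the Mllt3 peak 7.23-fold with 14 fragments (7.65 to 23.5), 151 bases upstream. Neither of these holds a match, which says only that these letters are not in the window.

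Members were rarely at internal starts, but were denser there than elsewhere. Of the 1346, 23 (1.71%) lay within 1 kb of one of 1730 internal RefSeq starts, a density of 7.41 summits per Mb (95% Poisson interval 4.70 to 11.1), against 3.52 (3.33 to 3.71) in the rest of the sequence that could hold a member. The 12 peaks that overlapped a stretch touched 13 of the 1730 (0.751%), 2 of them staggered starts of the same long noncoding RNA, and 9 of the peaks were at a start of the host gene itself. The other host-gene starts were those of Myo18a (an unconventional myosin), Mrtfb (a coactivator of SRF), Jmjd1c (a histone demethylase family member), Slc4a10 (a bicarbonate transporter) and Pde4dip (a scaffold protein of the centrosome and Golgi), at 5.54- to 8.92-fold. GATA letters stood in 5 of the 13 stretches, against 390 of 1730 internal stretches (22.5%) and 5831 of 31396 autosomal promoter stretches of the same length (18.6%). For GGAATG, the core letters of TEAD motifs, on either strand, the counts were 4 of 13, with 17.8% of internal and 14.6% of all autosomal stretches. AGGTGT, the T-box core, on either strand, stood in 1 of the 13, with 17.6% and 13.8%. These counts are few and are given as descriptions.

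Genes of 100 to under 500 kb held more FOG2 summits per Mb than any other class of position. Per Mb of sequence assigned to the class, members numbered 3.55 (95% Poisson interval 3.36 to 3.75). Genes under 100 kb had 2.28 (2.103 to 2.48) and genes of 500 kb or more 2.70 (2.46 to 2.95). Gene bodies within 5 kb of a gene end had 2.18 (1.96 to 2.41) and sequence outside protein-coding gene bodies 2.27 (2.19 to 2.35). All classes together had 2.50 (2.43 to 2.56). The interval of the members overlapped none of the others. Sequence outside gene bodies was counted from the first to the last protein-coding gene of each chromosome. Assembly gaps and blacklisted regions were not taken out of any class. They lower the density of a class that holds them, by an amount not measured. Summits lie close together, so these intervals, which treat them as independent, are too narrow, and no test between classes was made. The control signal at the summits also differed between classes. Its median level was 0.931 in members, 0.864 in gene bodies within 5 kb of a gene end, 0.828 in genes under 100 kb and in genes of 500 kb or more, and 0.724 outside gene bodies. The members had both the highest control level and the highest density, but the class near gene ends had the second highest level and the lowest density. The part of the control level in the density was not tested.

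**Figure D1:**
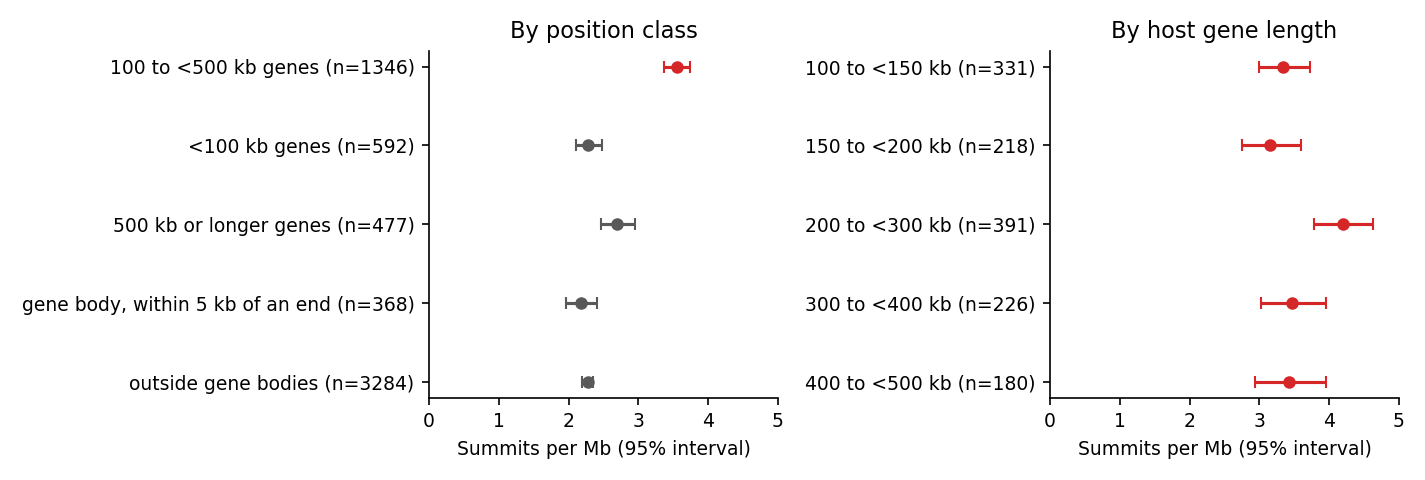
Summits per Mb of sequence assigned to each class (x axes), assembly gaps included, with exact 95% Poisson intervals as bars. Classes are by position (left) and, for the members, by length of the host gene (right). The members at 3.55 lie to the right of the 4 other classes, and the densities by host gene length run from 3.15 to 4.19.

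Within the range of lengths, density did not climb steadily with length. It was 3.34 per Mb (2.99 to 3.72) in genes of 100 to under 150 kb, 3.15 (2.75 to 3.601) from 150 kb, 4.19 (3.79 to 4.63) from 200 kb, 3.47 (3.03 to 3.95) from 300 kb and 3.42 (2.94 to 3.96) from 400 kb. Only the interval of the 200 to under 300 kb genes lay above those of both shorter groups. The share of genes with at least 1 member did climb, from 25.6% of 906 genes (Wilson 95% interval 22.9 to 28.5) in the shortest group to 63.9% of 122 (55.1 to 71.9) in the longest. A longer gene has more sequence to hold a member, so this share would climb at an even density too. The same goes for the median lengths, 205 kb in host genes and 145 kb in genes of the same class without a member. By chromosome, density ran from 2.58 per Mb (1.90 to 3.42) on chromosome 15 to 4.54 (3.53 to 5.74) on chromosome 8.

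The members were ordinary in strength. Their median fold was 6.48, with quartiles of 5.41 and 8.52 and a range of 3.04 to 54.3, and the median of all autosomal peaks was 6.39. A fold of at least 10 was reached by 210 members (15.6%, Wilson 95% interval 13.8 to 17.6), against 16.8% of all autosomal peaks, 12.8% of those in genes of 500 kb or more and 18.3% of those outside gene bodies. The median member was 245 bp wide and rested on 12 fragments (6.20 to 21.0), and 485 members (36.0%) rested on 10 or fewer. Most members near the median could therefore not be ranked against each other at this depth.

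**Figure D2:**
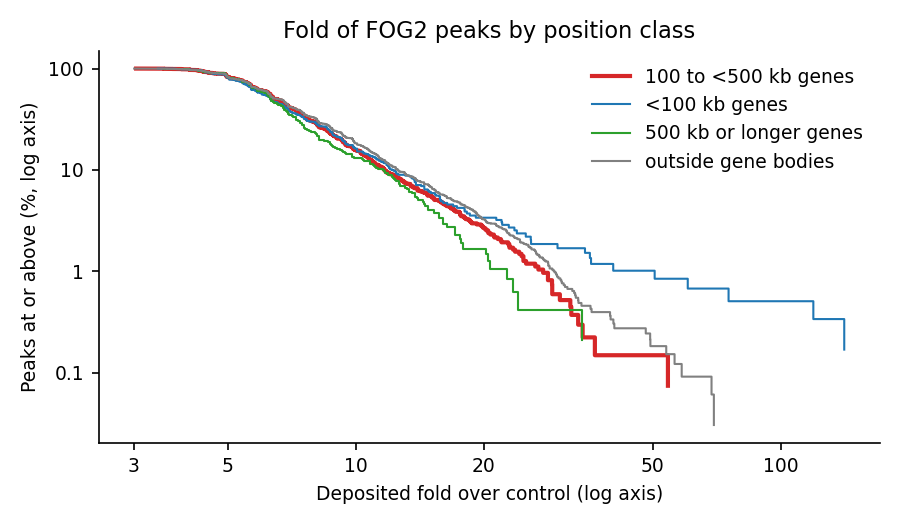
Share of peaks (y axis, percent, log axis) at or above a given deposited fold over control (x axis, log axis). There is 1 line each for members, peaks in genes under 100 kb, in genes of 500 kb or more and outside gene bodies. At least 10-fold was reached by 15.6% of members, 12.8% of peaks in genes of 500 kb or more and 18.3% outside gene bodies. The members' line ends at 54.3-fold.

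Along the host gene, members were spread nearly evenly. The strand was known for the hosts of 990 members, whose median distance from the 5′ end was 95.4 kb. The part of the gene body up to its midpoint held 512 of them (51.7%, Wilson 95% interval 48.6 to 54.8) with 49.99% of the sequence that could hold them. Over 10 equal bins of the gene body the density lay between 2.74 per Mb (2.104 to 3.52), in the bin at the 3′ end, and 3.79. Sequence 5 to 10 kb from the 5′ end had 2.82 per Mb (1.77 to 4.27), and the same distance from the 3′ end 2.70 (1.67 to 4.13), so that no gathering near either end was detectable beyond the excluded 5 kb. To the nearest gene end the median distance was 54.9 kb, with quartiles of 27.7 and 90.8 kb. Just 8 members (0.594%) also lay in a second protein-coding gene, and 82 (6.09%) in a gene annotated as a long noncoding RNA.

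**Figure D3:**
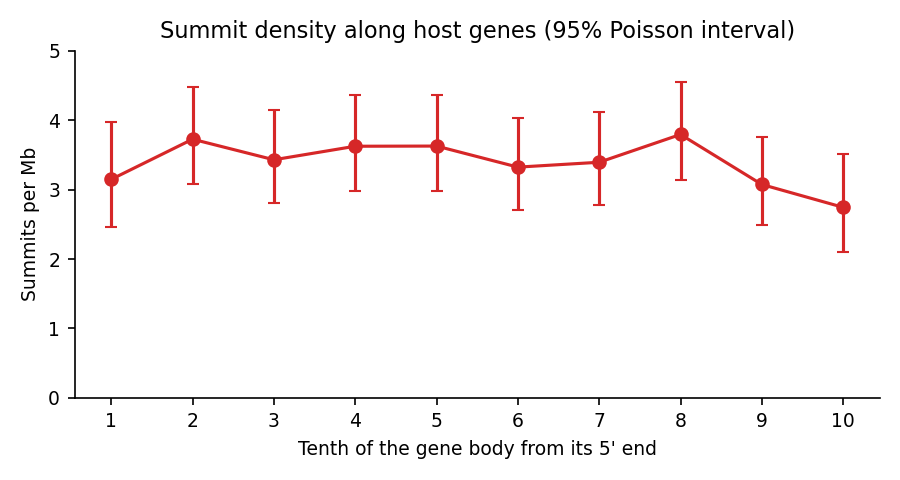
Summits per Mb (y axis) in 10 equal bins of the host gene body counted from its 5′ end (x axis), for the 990 members whose host has a known strand, with exact 95% Poisson intervals as bars. The 10 densities lie between 2.74 and 3.79 per Mb and their intervals overlap.

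The strongest member lay in Cep85l, a gene for a centrosomal protein whose body also encloses Pln, the gene of phospholamban, the inhibitor of the calcium pump of the sarcoplasmic reticulum. This peak, at chr10:53324587-53325185, was 54.3-fold with 110 fragments (90.4 to 133), and its summit lay 12.9 kb from Pln. It was the only member in Cep85l. The next strongest lay in Rai14, which encodes an actin-associated ankyrin repeat protein, at 36.5-fold with 62 fragments (47.5 to 79.5; chr15:10657560-10658632). The fragment intervals of these 2 peaks did not overlap.

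Adhesion and signalling genes made up much of the rest of the 10 strongest. Cdh2 encodes N-cadherin, the adhesion molecule of the intercalated disc, and its peak was 32.2-fold with 129 fragments (108 to 153), the most of any member, at chr18:16740607-16741241. The Pcdh7 peak, in a protocadherin gene, was 32.0-fold with 74 fragments (58.1 to 92.9; chr5:57743927-57744651). Prkce, the gene of protein kinase C epsilon, had a peak of 30.2-fold with 47 fragments (34.5 to 62.5; chr17:86476868-86477947). Insr, the insulin receptor gene, had one of 29.0-fold with 64 fragments (49.3 to 81.7; chr8:3180090-3180503). Others lay in genes best known from other tissues or processes. They were Mbp, the myelin basic protein gene (33.4-fold), Abca4, a transporter of the retina (29.0-fold), and Usp29, an imprinted gene (29.0-fold). Apart from Cep85l and Cdh2, the fragment intervals of the peaks named here overlapped, some by only a few fragments, and gave no firm order.

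A minority of host genes held most of the members. A single member stood in 487 genes, 2 in 177, 3 in 77, 4 in 31 and 5 or more in 25, and the 310 genes with at least 2 held 859 members (63.8%). The share expected at an even density was not computed, so these counts alone show no gathering beyond that set by gene length. Members were not mainly in tight groups: 239 (17.8%, Wilson 95% interval 15.8 to 19.9) had another peak within 10 kb, against 18.6% of all autosomal peaks and 13.0% of those in genes of 500 kb or more, and the median distance to the next peak was 61.2 kb.

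Ror1, which encodes a receptor for WNT5A, held the most, with 10 members (95% Poisson interval 4.80 to 18.4), where its length at the density of the class would hold 1.20. They spanned 198 kb of the gene and ranged from 4.60- to 18.4-fold, the strongest at chr4:100297729-100298168 with 34 fragments. Another peak lay within 10 kb of 4 of these members. Pcdh7 held 9 (4.12 to 17.1; 1.45 at the class density), spread over 385 kb with none within 10 kb of another. Ank3, which encodes ankyrin-G, an anchor of sodium channels at the membrane, also held 9 (1.72 at the class density), but 6 of them lay within 10 kb of another peak. Ror1 and Pcdh7 each combined 1 or 2 peaks above 16-fold with many near or below the median fold. The genes with the most members were picked by their counts among 2061, and summits close together are not independent. Their intervals are descriptions only.

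Of the 11 genes with the most members, 3 belonged to the sarcomere and Z-disc list described below, which has 20 of the 2061 genes. Ror1, Ank3, Kcnq1, Zfpm2, Prkca and Kif26b were in other lists. The 11 were picked by their counts and the lists written with earlier results known, so list membership is a description only. Sorbs2, a Z-disc adaptor gene, held 8 (3.45 to 15.8; 1.10 at the class density), all of similar strength, between 6.39- and 9.63-fold. Palld, the gene of the actin crosslinker palladin, held 7 (2.81 to 14.4; 1.35), the strongest 14.7-fold with 29 fragments. Mical2, which encodes an actin-oxidising enzyme that promotes SRF signalling, held 6 (2.20 to 13.1) where 0.424 would stand at the class density, or 50.3 per Mb. Its members were, along the gene, 23.5-, 7.67-, 7.37-, 7.25-, 4.02- and 15.2-fold, and only the first and last reached 10-fold. Another peak lay within 10 kb of 3 of the Mical2 members. Kif26b, a kinesin family gene, held 7, and Dlc1, a GTPase-activating protein gene, held 6, of which 5 lay within 10 kb of another peak. Prkca, the gene of protein kinase C alpha, held 6 between 5.48- and 7.75-fold, and Kcnq1, the potassium channel gene of the slow delayed rectifier current, 6 between 4.25- and 6.57-fold.

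Zfpm2, the gene of FOG2 itself, was also among them, with 6 members (2.20 to 13.1) where 1.56 would stand at the class density. Along the gene they were 4.08-fold (13 fragments), 8.12-fold (17), 4.96-fold (13), 4.26-fold (9), 4.96-fold (10) and 10.3-fold (28). The last, at chr15:40979675-40980022, was the only one to reach 10-fold. The interval of the count lay above the class density, but 4 of the 6 were below 5-fold, and at a fold of at least 5 only 2 remained.

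**Figure D4:**
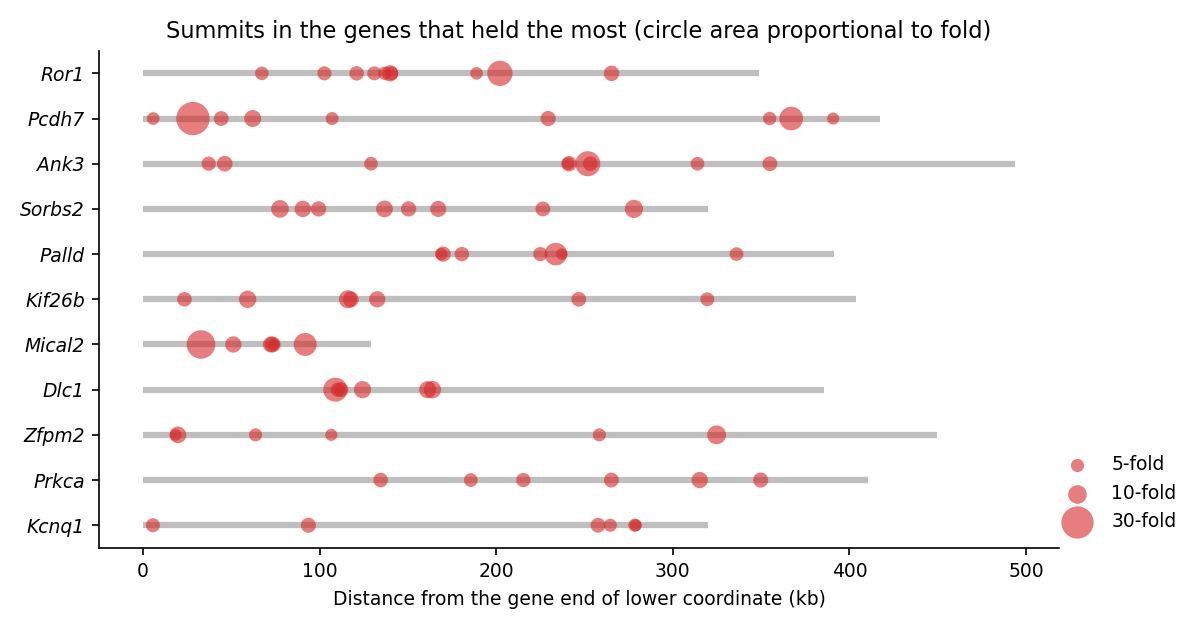
Positions of member summits (circles, area proportional to the deposited fold) in the 11 genes that held the most, each gene body drawn as a grey bar from its end of lower coordinate (x axis, kb). Ror1 holds 10 circles and Pcdh7 9 spread along the gene, whereas the 6 in Dlc1 fall within 55.0 kb.

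Gene lists by function were next counted, and the background for each is the 38.7% of all 2061 genes of this length that held a member and the 3.55 members per Mb. Host length differs between lists, so the density is the fairer comparison. The lists were written with earlier results of these data known and favour well-studied genes: the 462 genes in any list held a member in 56.5% of cases and 5.21 summits per Mb (4.78 to 5.68), and the 1599 genes in no list in 33.5% and 2.95 (2.75 to 3.16). Expression was not measured in these libraries. No list was tested, and nothing is claimed as particular to one.

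The sarcomere and Z-disc list had the highest density. Of its 20 genes, 13 (65.0%, Wilson 95% interval 43.3 to 81.9) held 44 members where 14.5 would stand at the class density, or 10.8 per Mb (7.82 to 14.4). Its strongest member was that of Mical2 (23.5-fold, 51 fragments, 38.0 to 67.1). Cap2, an actin monomer-binding protein of muscle, followed with peaks of 18.2- and 15.1-fold, then Palld at 14.7-fold and Fhod3, a formin needed for sarcomere assembly, at 13.5-fold. Of the 44 members, Sorbs2 held 8, Palld 7 and Mical2 6, so the density of the list rests heavily on these genes. The density of the list without them was not computed.

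Adhesion, receptor and guidance genes also stood above the 3.55 per Mb of the class. The intervals of their densities all took in 5.21, the density of genes in any list. In the adhesion, intercalated disc and matrix list, 33 of 48 genes (68.8%) held 64 members, 6.03 per Mb (4.65 to 7.70). Behind Cdh2, which held 5 members, came Col12a1, a fibril-associated collagen gene (26.4-fold), Thsd7a (24.8-fold) and Col23a1, a transmembrane collagen gene (22.8-fold). In growth factor and developmental signalling, 16 of 28 genes (57.1%) held 33 members, 6.73 per Mb (4.63 to 9.45). Insr led, followed by Grb10, an imprinted adaptor that restrains insulin signalling (23.0-fold, 4 members, each within 10 kb of another), Ror1 (18.4-fold) and the epidermal growth factor receptor gene Egfr (10.6-fold). In guidance receptors and ligands, 18 of 27 genes (66.7%) held 35 members, 5.63 per Mb (3.92 to 7.84). Ntn4, a netrin gene, led at 20.3-fold, followed by the semaphorin and VEGF co-receptor gene Nrp1 (14.7-fold), Slit1 (11.8-fold) and the ephrin receptor gene Ephb1 (11.3-fold).

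Among transcription factors and cofactors, 35 of 61 genes (57.4%) held 77 members, 5.95 per Mb (4.70 to 7.44). Bach2, a leucine zipper repressor, held 5, the strongest 18.8-fold with 52 fragments (38.8 to 68.2), and Arid1b, a subunit of the BAF chromatin remodelling complex, reached 14.8-fold. Prdm16, a zinc finger regulator linked to noncompaction cardiomyopathy, held 4 members, of 12.8-, 6.84-, 6.93- and 4.21-fold. Meis1, which encodes a TALE homeodomain factor, held 5 between 5.97- and 10.8-fold where 0.459 would stand at the class density. Mef2c, a MADS-box factor of muscle, held 2, of 6.81- and 3.61-fold, with 22 and 7 fragments. The intervals of Meis1's peaks overlapped, so no member of that gene stood out at this depth.

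RNA-binding and splicing genes held members in 12 of 23 cases (52.2%), 6.11 per Mb (3.95 to 9.01). Rbms1, a single-stranded nucleic acid binding protein, led at 26.9-fold, followed by the translational regulator Msi2 (17.7-fold). Rbm20, the splicing factor of titin, held 4 members of 16.7-, 7.34-, 16.3- and 4.37-fold, with 40, 20, 55 and 14 fragments along the gene. Zcchc7 reached 10.3-fold. Ttn itself, at a length within the range, held 3 members, the strongest 5.86-fold and so below the median of the class.

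Kinase and cytoskeleton genes lay closer to the background. Cyclic nucleotide, kinase and phosphatase signalling had 32 of 55 genes (58.2%) and 4.88 per Mb (3.72 to 6.30). Prkce led, then Prkag2, a regulatory subunit of AMP-activated kinase linked to cardiomyopathy (17.6-fold), Stk39 (13.2-fold) and the phosphodiesterase gene Pde3a (12.7-fold). Cytoskeleton and GTPase signalling had 38 of 75 genes (50.7%) and 4.83 per Mb (3.82 to 6.02), led by Tln2, the gene of the integrin linker talin 2 (18.0-fold), Kif13a (15.3-fold), Arhgap31 (14.4-fold) and Dock10 (11.8-fold). The lower bounds of both densities lay just above 3.55.

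For calcium and ion channel genes the share with a member was above 38.7%, but the interval of the density took in the background. Calcium handling had 14 of 22 genes (63.6%) with 24 members where 20.2 would stand at the class density, 4.23 per Mb (2.71 to 6.29). Cacnb2, the beta subunit of the L-type calcium channel, held 3, of 8.53-, 19.8- and 12.05-fold, the strongest with 43 fragments (31.1 to 57.9) at chr2:14917654-14917998. Camk2d, the main calmodulin-dependent kinase of the heart, held 3, of 4.96-, 4.70- and 11.2-fold, and Slc8a1, the sodium-calcium exchanger, 2, of 10.2- and 6.40-fold. Trdn, the gene of triadin in the calcium release complex, reached 9.86-fold. Ion channels and gap junctions had 11 of 21 genes (52.4%) and 4.90 per Mb (3.28 to 7.03), led by Ank3 (18.0-fold), the potassium channel gene Kcnj6 (16.4-fold), the sodium channel gene Scn10a (14.0-fold) and Kcnab1 (10.9-fold). Energy and lipid metabolism had 12 of 18 (66.7%) and 4.73 per Mb (2.71 to 7.69), led by the mitochondrial carrier gene Slc25a13 (14.2-fold), Ldlrad3 (13.5-fold), Ldlrad4 (10.8-fold) and Acacb (8.91-fold). Its genes without a member were Gpd2, Osbpl6, Osbpl9, Phkb, Lpin1 and Ndufaf2.

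Among markers of other cell types and organs, the endothelial list stood near the ion channel genes, and the neuronal, blood and hepatocyte lists had the lowest densities of the 16. Endocardial and endothelial genes had 8 of 15 (53.3%) and 5.19 per Mb (2.84 to 8.71), led by Cgnl1, a junction protein gene with 5 members (9.01-fold), Dach1 (8.92-fold), Ptprb (8.64-fold) and the angiopoietin receptor gene Tek (7.54-fold). Epicardial and mesenchymal genes had just 4 in the class, of which Sema3d (9.92-fold) and Bnc2 (4.92-fold) held members and Itga8 and Aldh1a1 did not. Neuronal genes had 13 of 29 (44.8%) with 21 members where 31.5 would stand at the class density, 2.36 per Mb (1.46 to 3.61). They were led by the muscarinic receptor gene Chrm2 (15.9-fold), which the heart also uses, Syn3 (11.02-fold), Grik1 (10.5-fold) and Grin2a (10.5-fold). Blood and immune genes had 6 of 18 (33.3%) and 2.51 per Mb (1.08 to 4.94), led by Aff3 (8.16-fold), Skap1 (6.84-fold), Stat4 (6.84-fold) and Runx1 (6.38-fold). Hepatocyte and endoderm genes had 1 of 6, Hnf4g at 6.93-fold, while Cps1, Nr5a2, Abcb11, Cftr and Glis3 held none. The neuronal, blood and hepatocyte intervals all took in 3.55, so a density below the class was not detectable for them.

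**Figure D5:**
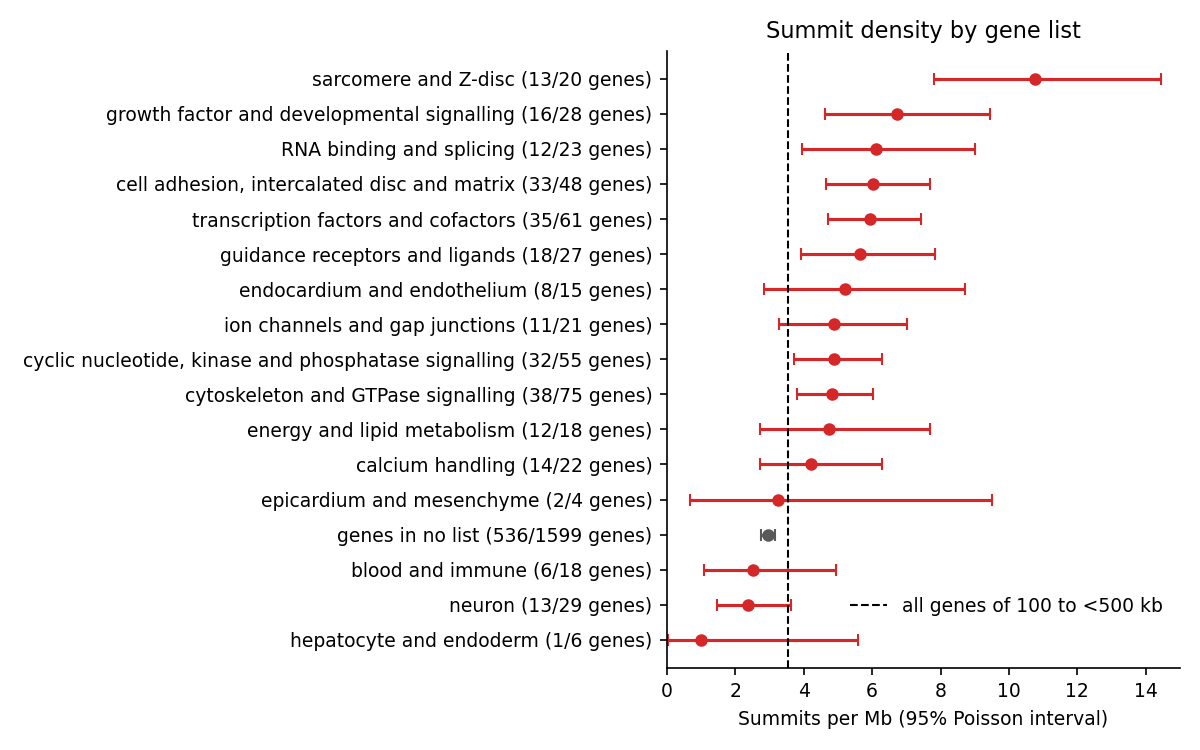
Members per Mb (x axis) in the genes of each list, with exact 95% Poisson intervals as bars and, in brackets, the genes with a member out of those of 100 to under 500 kb; the dashed line marks all genes of this length at 3.55. The sarcomere and Z-disc list lies highest at 10.8, and the neuronal, blood and hepatocyte lists lie lowest.

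Some well-known heart genes fell outside the rule through their length, and any peaks in them are not counted here. Erbb4 (1077 kb), Nrg1 (1084 kb), Pde4d (1302 kb), Ppargc1a (662 kb) and Sox6 (570 kb) were too long, and Tbx20 (53.5 kb) and Tgfb2 (86.9 kb) too short. No summit of the list was assigned to Nrg1 or Tbx20 in any case. At the lower limit of length, the shortest host was Map2k4 (100.1 kb, 5.07-fold) and the nearest excluded one Snx30 (99.6 kb, 7.46-fold). At the upper limit they were Dnm3 (495.9 kb, 6.32-fold) and Edil3 (501.8 kb, 4.94-fold). Nearest to a gene end was a member in Phlpp1, 5201 bp away (6.96-fold), and the nearest excluded peak lay in Mlip, 4973 bp from an end (7.79-fold).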

How the data were processed

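The deposited data are a single list of peaks, filtered against blacklisted regions per the file's name, from 2 pooled FOG2 pulldown libraries and 1 input. Per the submitters' processing notes, reads were handled on mm10 with MACS2 2.1.1, Picard, SAMtools 1.5 and Bowtie2 2.3.2, whose order and settings the sources used here do not give. Each peak's fold, as deposited, is the ratio of pulldown over control at its summit on a linear scale. The authors' −log10 p, their −log10 q and a display score, which was left aside, stand beside it.

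Fragments per summit were recovered as the whole number that solves the fold, with 1 added to both sides, and the Poisson −log10 p together. A solution within 0.001 was found for all 1346 members, and for 20 of them another number also fitted. The files hold no library totals, so depth is known only as fragments per summit. Genes came from RefSeq on GRCm38.p6, a table without strand or exons; strand and start stretches came from a promoter table that covers 1595 genes of the class. Exons, introns and motifs at summits were not analysed here. Of 2097 genes in the class, 36 had no sequence left to them under the rule. Each position counted only for the longest gene body holding it, and positions within 5 kb of a gene end were left out. Densities divide summits by the sequence the rule allows, with assembly gaps and blacklisted regions not taken out. Calculations used Python 3.11.15, pandas 2.3.3 and SciPy 1.17.1, and the scripts were tested on simulated data.

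No test was made, because the replicates were pooled and peaks are not replicates. Intervals are 95% Poisson or Wilson intervals. The members and the 16 gene lists (977 genes, all matched) were chosen with earlier results of these data known. Named genes are the 10 members of highest fold, the 10 genes with most members and ties, up to 4 of highest fold in each list, those without a member where 6 or fewer, 16 genes given whatever their values, and those nearest each limit; some genes under this rule are not reported here. Others (genes at internal starts, nested genes and their hosts, Ttn, Rasgrf1, Lamc1 and Cacna1e) were named after their values were seen.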

Additional observations from a re-analysis of the deposited data

How the results depend on the processing

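Density and strength depend on the threshold for a peak, while the contrast with shorter genes does not. With a −log10 q of at least 5, 908 members stayed, at 2.40 per Mb with a median fold of 7.56, 12.7% had a neighbour within 10 kb, and 29.6% of genes held one. With a fold of at least 5, 1112 stayed, and the same values were 2.93, 6.96, 14.5% and 34.1%. In the stronger 50% of peaks they were 684 members, 1.80, 8.45, 10.96% and 23.9%. Counting summits within 10 kb once, an alternative chosen after seeing the data, gave 3.22 per Mb. These shifts follow from fewer peaks. The density relative to genes under 100 kb was 1.55, and 1.45 to 1.66 under the 8 alternatives run. The others were a gene end distance of 1 or 10 kb, the shortest gene body setting the class, and the whole peak inside. Of the 16 lists, 14 had a share of genes above the background, and 13 or 14 under 7 alternatives. By density, the fairer comparison, the epicardial (3.26 per Mb), neuronal (2.36), blood (2.51) and hepatocyte (1.00) lists lay below 3.55. The sarcomere density was 3.03 times that of the class (2.91 to 3.93) and the neuronal one 0.666 times (0.618 to 0.811). Both lists were written with earlier results known, and the alternatives reuse the same peaks, so they do not test these ratios. Zfpm2 kept 2 of its 6 members under each of the 3 stricter thresholds. The wider motif window was not run, since it needs the genome sequence. No paired analysis was possible because the replicates were pooled, and for the same reason no replicate could be left out. With a median of 12 fragments per summit, counting error limits every single fold.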

Other observations

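Some members lie nearer to a gene enclosed in the host than to the host's own ends. For 47 members in 32 hosts, the nearest other protein-coding gene was one nested in the host, whether or not an end of the host lay nearer. Besides Pln in Cep85l, the 3 members of Cmss1 (13.5-, 10.9- and 6.73-fold) all lay inside Filip1l, which encodes a filamin A interacting protein and whose body Cmss1 encloses. A member of Syn3 (8.45-fold, 28 fragments, 18.6 to 40.5) lay 16.3 kb from Timp3, the gene of a metalloproteinase inhibitor. In such cases the host is named by the rule on length, and which gene a peak bears on was not measured.

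Rasgrf1, an imprinted exchange factor gene expressed in brain, held the widest member, 2449 bp at chr9:89959191-89961639 and 28.3-fold, with 2 more of 10.7- and 12.4-fold beside it. Of the genes with most members for their length, Lamc1, a laminin chain gene, held 5 (1.62 to 11.7) where 0.369 would stand at the class density, the strongest 11.8-fold. For genes without a member, a density below that of the class could not have been detected at any length in this range. Cacna1e, at 494 kb the longest of them, would hold 1.72, and a count of 0 allows up to 3.69.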
